A study of Mus musculus with 12 samples.

Results

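The miR-183 cluster is a set of 3 microRNA (miRNA) genes that lie side by side and whose 5p arms, miR-183-5p, miR-96-5p and miR-182-5p, were followed here in mouse skin and skin tumours. The members were chosen by name (rows mmu-mir-183-5p, mmu-mir-96-5p and mmu-mir-182-5p), with earlier results of these data known. They are 3 of the 1251 miRNA rows of the deposited small RNA table. All 3 were well above the lowest recorded value in each of the 12 libraries, and all 3 were among the 544 miRNAs tested. Wild-type (WT) mice and mice labelled TAp63-/- were compared, all of the C57Bl6 strain. TAp63 is the name for those isoforms of p63, a relative of p53, that carry an N-terminal transactivation domain. The knockout (KO) mice are homozygous by that label, and the construct is not described in the sources used here. The 3 WT and 3 KO skin libraries were made from dorsal skin of mice aged 4 weeks that had no treatment. The 2 WT and 4 KO tumour libraries were made from squamous cell carcinoma (SCC) of the skin, taken after the age of 35 weeks under chronic ultraviolet radiation (UVR), given 3 times a week at 2.5 kJ per square metre. Skin and SCC therefore differ in tissue, age and UVR together, and these cannot be told apart. The library titles also begin with Su for all skin and LM for all SCC libraries, and the meaning of these prefixes is not given. Any difference in handling that goes with the prefix cannot be told apart from tissue either. The labels do not say that each library is a separate mouse, so p-values measure the spread between these libraries, which may be partly technical.

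A miRNA is cut from the stem of an RNA hairpin. It then guides Argonaute proteins to mRNAs, mainly by pairing of its seed, bases 2 to 8 from the 5′ end, and the paired mRNA is repressed. The miR-183 cluster is transcribed as 1 primary RNA and is best known from sensory organs such as the inner ear and the retina, where mutation of the miR-96 seed causes hearing loss. The cluster is also known as abundant in many carcinomas, in sensory neurons that reach the skin, and in activated T cells. FOXO transcription factors are among the known targets of miR-182 and miR-96. The transcription factor ZEB1 is known to repress both this cluster and the epithelial miR-200 family.

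The mature sequences are shown with the seed in capitals, because the 3 members are related in sequence and their seeds are close without being the same. They are from RefSeq (build GRCm38.p6).
miR-183-5p: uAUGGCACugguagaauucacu
miR-96-5p: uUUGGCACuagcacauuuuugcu
miR-182-5p: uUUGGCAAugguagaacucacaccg
With positions counted from 1 at the 5′ end, the seed of miR-183-5p changes into that of miR-96-5p by A2U, and that of miR-96-5p into that of miR-182-5p by C8A. Over their first 22 bases, aligned without gaps, miR-183-5p and miR-182-5p were identical at 18 positions, and miR-183-5p and miR-96-5p at 13. Only the miR-96-5p seed was shared with another mature RefSeq miRNA, miR-1271-5p, which was not analysed here. The mature RNAs are 22, 23 and 25 bases long for miR-183-5p, miR-96-5p and miR-182-5p. How reads that fit more than 1 of these sequences were counted is not given in the sources used here.

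The 3 hairpins lie within 3820 bases on the minus strand of chromosome 6 (chr6:30165918-30169737), in the order Mir183, Mir96, Mir182 in the direction of transcription. In RefSeq, Mir183 is at 30169668 to 30169737, Mir96 at 30169446 to 30169551 and Mir182 at 30165918 to 30165992, and the gaps between them are 116 and 3453 bases. In GENCODE M21 no gene other than the 3 miRNA genes overlaps this span, so no annotated exon or intron hosts them. The nearest other gene is the long noncoding RNA Rncr4 on the plus strand (30172893 to 30175126), and the nearest protein-coding genes are Nrf1 (30047988 to 30153458) and Ube2h (30211289 to 30304539). The Mir183 hairpin is shown with its mature arms in capitals, since its 5p and 3p arms were both measured above the lowest value in all 12 libraries.
Mir183 hairpin: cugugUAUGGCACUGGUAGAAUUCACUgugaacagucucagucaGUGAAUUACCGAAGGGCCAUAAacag

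Values are the authors' log2 levels, quantile normalized between libraries, so each value stands for a rank within its library, and equal ranks have nearly equal values. The lowest recorded value, called the floor here, is a linear value of 10 (log2 3.32). Read depth is not kept by such values, and 370 to 545 miRNAs per library were above the floor. WT SCC replicate 2 was the tumour nearest to skin on principal component 1 (55.3% of the variance). It scored 8.60, the other SCC libraries 14.0 to 18.8 and skin -19.8 to -12.3. Results of the members are therefore given without that library, and without the other WT SCC library, where they move. Tests are from limma, a linear model with variances moderated across all 544 tested miRNAs, and a miRNA was called at a Benjamini-Hochberg adjusted p under 0.05.

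The first comparison was of SCC with skin. Taken as the mean of the WT and KO effects, miR-183-5p and miR-182-5p were higher in SCC, by 1.88-fold and 1.56-fold, and miR-96-5p was 1.56-fold higher without passing the test. So 2 of the 3 members rose and none fell, against a background in which 41.9% of all tested miRNAs were called and 20.4% were called higher. The increases were smaller in value than those of a list of carcinoma miRNAs, which was chosen with earlier results of these data known. The increases of the members were smallest without WT SCC replicate 1. No member was called within WT or within KO mice alone.

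**Figure D1:**
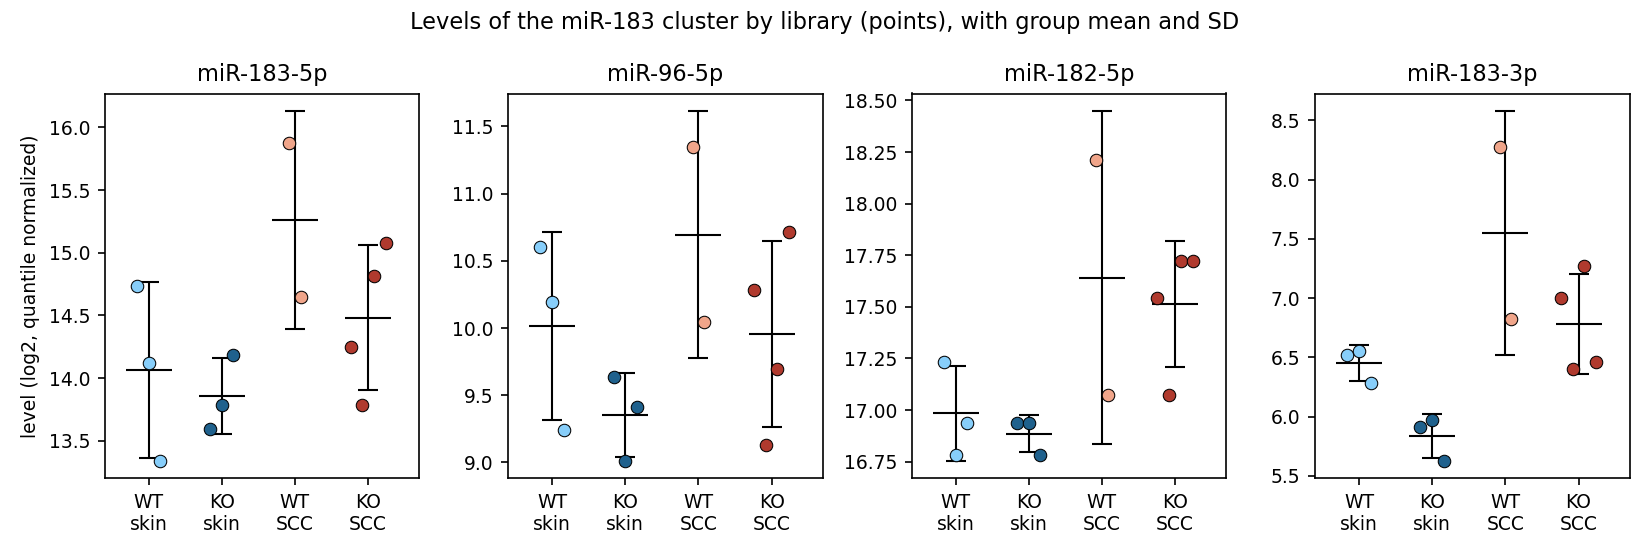
Levels of the 3 members and of the miR-183 passenger arm, as quantile-normalized log2 values (vertical axis, a different range in each panel), in 3 WT skin, 3 KO skin, 2 WT SCC and 4 KO SCC libraries; each point is a library, and the bars are the group mean and SD. WT SCC replicate 1 is the highest library in every panel, at 15.88, 11.35, 18.21 and 8.28.

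miR-182-5p was the most abundant member, ranking 5 to 13 of 1251 in every library. In WT skin its log2 levels were 17.23, 16.78 and 16.94, in KO skin 16.94, 16.94 and 16.78, in WT SCC 18.21 and 17.07, and in KO SCC 17.54, 17.07, 17.72 and 17.72. The skin libraries held ranks 10 to 13 and the SCC libraries ranks 5 to 11, and the repeated values come from equal ranks. The highest skin library, WT skin replicate 1, lay above the 2 lowest SCC libraries, so 4 of 6 SCC libraries exceeded all skin libraries. For 10.5% of all tested miRNAs, all 6 did. The averaged difference was 0.64 ± 0.21 (log2, SE; 95% interval 0.18 to 1.11, limma adjusted p = 0.0310). An exact two-sided permutation of tissue labels within genotype gave p = 0.0143 (n = 6 against 6), and 0.214 after adjustment over the 15 permutation tests of the members. Those 15 include the tests of WT SCC against WT skin and of KO against WT, which cannot fall below 0.05 in groups of this size. Without WT SCC replicate 1 the difference fell to 0.36 and was not called (adjusted p = 0.174), and without WT SCC replicate 2 it was 0.93 (adjusted p = 0.00294). Leaving out WT skin replicate 2, WT skin replicate 3 or any 1 KO skin library ended the call too, with adjusted p of 0.0524 to 0.0722.

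miR-183-5p, the first miRNA of the primary transcript, ranked 21 to 58. In WT skin its log2 levels were 14.74, 14.12 and 13.34, in KO skin 13.60, 13.79 and 14.19, in WT SCC 15.88 and 14.65, and in KO SCC 14.25, 13.79, 14.82 and 15.08. Skin and SCC overlapped widely, with 3 of 6 SCC libraries above all skin libraries. The averaged difference was 0.91 ± 0.33 (95% interval 0.19 to 1.63, limma adjusted p = 0.0427), and the exact permutation p was 0.0400 (0.286 over the 15 tests). Without WT SCC replicate 1 the difference was 0.60 (adjusted p = 0.222), and without WT SCC replicate 2 it was 1.22 (adjusted p = 0.0194). The call ended without 6 other single libraries (WT skin replicate 2 or 3, KO skin replicate 1 or 2, and KO SCC replicate 3 or 4; adjusted p 0.0657 to 0.0993). It also ended with library quality weights (0.0709), with the moderation neither trended nor robust (0.0504) and with miRNAs seen in only 1 library added to the test (0.0585).

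miR-96-5p was the least abundant member, ranking 94 to 169. Its log2 levels were 10.60, 10.20 and 9.24 in WT skin, 9.63, 9.01 and 9.41 in KO skin, 11.35 and 10.04 in WT SCC, and 10.28, 9.13, 9.69 and 10.71 in KO SCC. The groups overlapped, with 2 of 6 SCC libraries above all skin libraries. The averaged difference of 0.64 ± 0.36 was not called (95% interval -0.15 to 1.43, limma adjusted p = 0.183; exact permutation p = 0.134, or 0.429 over the 15 tests). Without WT SCC replicate 1 it was 0.32, and without WT SCC replicate 2 it was 0.97 (adjusted p = 0.590 and 0.0747).

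**Figure D2:**
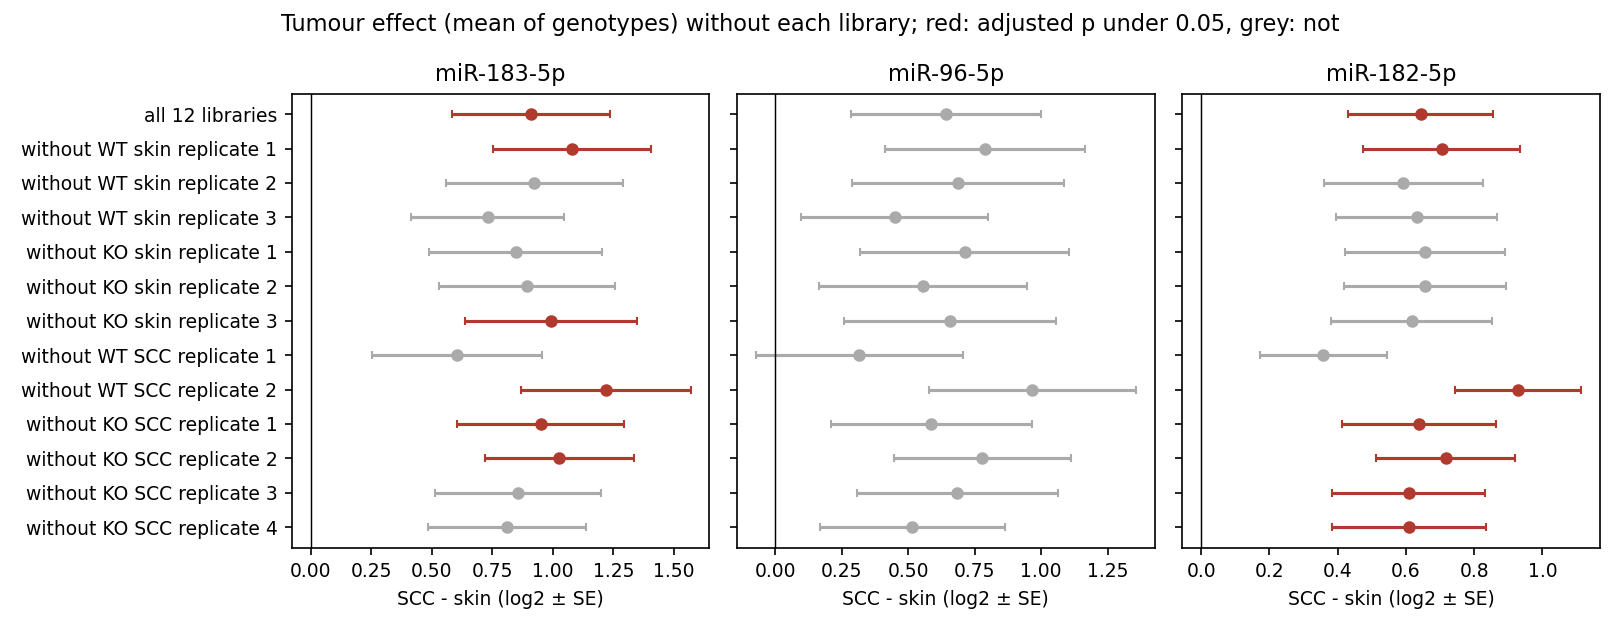
Averaged SCC minus skin difference (log2, horizontal axis, with SE) of miR-183-5p, miR-96-5p and miR-182-5p with all 12 libraries and without each library in turn; red marks an adjusted p under 0.05 and grey the others. All differences stay above 0, and the smallest in each panel (0.60, 0.32 and 0.36) is the one without WT SCC replicate 1.

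Within KO mice the 3 members had differences of like size, and in WT mice that of miR-183-5p was the largest; whether members differed from each other within a genotype was not tested. In KO mice, SCC exceeded skin by 0.63 ± 0.42 for miR-183-5p, 0.60 ± 0.46 for miR-96-5p and 0.63 ± 0.27 for miR-182-5p (limma adjusted p = 0.278, 0.345 and 0.0976). All 4 KO SCC libraries lay above the 3 KO skin libraries for miR-182-5p, as they did for 17.8% of all tested miRNAs. For miR-183-5p and miR-96-5p, 3 of 4 did, and KO SCC replicate 2 lay within the skin range. The miR-182-5p difference was 0.78 and called without KO SCC replicate 2 (adjusted p = 0.0474). It was also called without either WT SCC library, where its value stayed at 0.63 and the spread estimated from all groups was smaller (adjusted p = 0.0382 and 0.0376). In the KO tumour comparison 34.2% of tested miRNAs were called, and 16.0% were called higher.

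In WT mice, SCC exceeded skin by 1.20 ± 0.50 for miR-183-5p, 0.68 ± 0.55 for miR-96-5p and 0.66 ± 0.33 for miR-182-5p (limma adjusted p = 0.125, 0.438 and 0.202), and none of the 3 was called, against 18.2% of tested miRNAs called and 8.82% called higher. WT SCC replicate 1 lay above all WT skin libraries for all 3 members, and WT SCC replicate 2 lay within the skin range for all 3. Without WT SCC replicate 1 the differences were 0.58, 0.03 and 0.09, and without WT SCC replicate 2 they were 1.81, 1.33 and 1.23, the last of them called (adjusted p = 0.0179). The WT value thus moved by more than 1.5 times with either tumour library. Groups of 2 and 3 cannot give an exact permutation p below 0.100.

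The second comparison was of KO with WT mice, in skin and in SCC. The mean of every member was lower in KO than in WT mice in both tissues, and no difference passed the test. In skin the differences were -0.21 ± 0.45 for miR-183-5p, -0.66 ± 0.49 for miR-96-5p and -0.10 ± 0.29 for miR-182-5p, each with an adjusted p of 1 by limma. Their 95% intervals were -1.19 to 0.78, -1.74 to 0.42 and -0.74 to 0.54. In this comparison 0 of 544 miRNAs (0.0%) were called by limma, while 31 (5.7%) had an unadjusted p under 0.05 and limma with library quality weights called 22. Without WT skin replicate 1, miR-183-5p and miR-182-5p turned to 0.13 and 0.03.

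In SCC the KO minus WT differences were -0.78 ± 0.48 for miR-183-5p, -0.74 ± 0.52 for miR-96-5p and -0.13 ± 0.31 for miR-182-5p (limma adjusted p = 0.638, 0.714 and 0.906). The intervals were -1.82 to 0.27, -1.89 to 0.41 and -0.81 to 0.55. The lowest of the 6 SCC libraries was KO SCC replicate 2 for miR-183-5p and miR-96-5p, and it shared the lowest miR-182-5p value with WT SCC replicate 2. The size of these differences moved with single libraries of both genotypes. Without WT SCC replicate 1 they were -0.17, -0.09 and 0.44, and without WT SCC replicate 2 they were -1.39, -1.39 and -0.70. Without KO SCC replicate 2 they were -0.55, -0.46 and 0.0184. Of all tested miRNAs, 1 (0.184%) was called in this comparison, and 46 (8.46%) had an unadjusted p under 0.05. The interaction, which is the KO tumour effect minus the WT tumour effect, was -0.57 ± 0.65, -0.08 ± 0.72 and -0.03 ± 0.42 (limma adjusted p = 0.851, 0.983 and 0.983), so a difference in tumour effect between the genotypes was not detected for any member. It was called for 0 of 544 miRNAs by limma, and 41 (7.54%) had an unadjusted p under 0.05. The tumour and genotype comparisons share libraries and are not independent of each other.

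**Figure D3:**
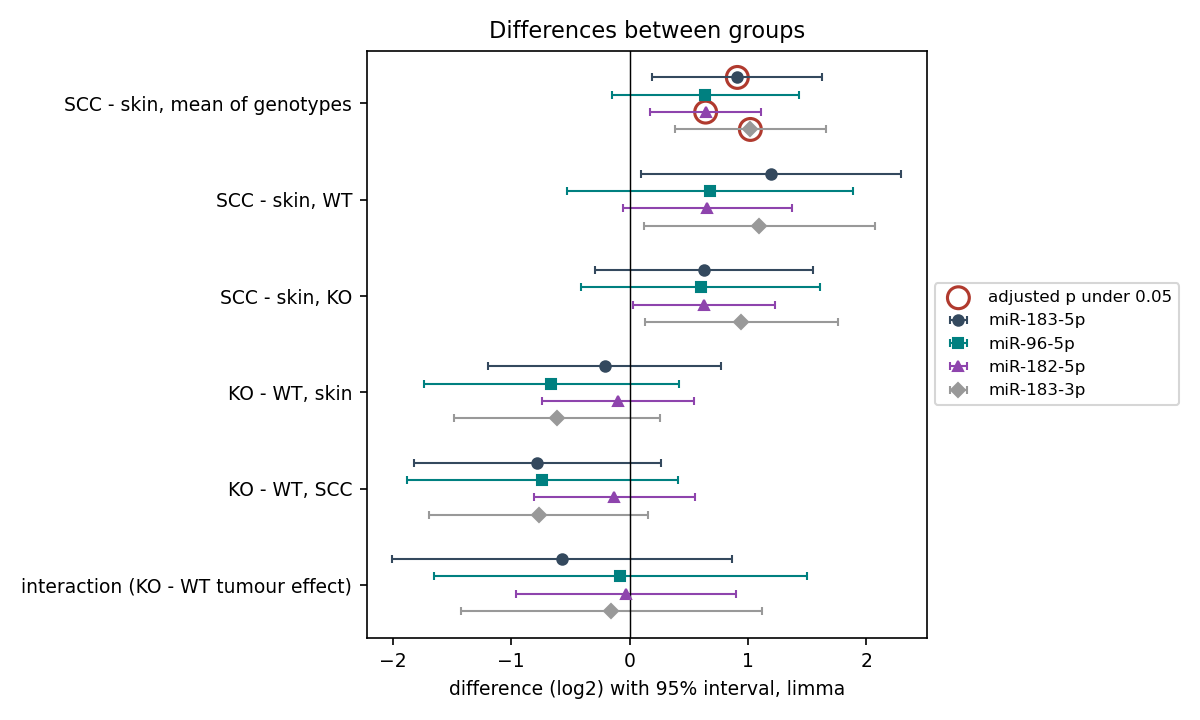
Differences between groups (log2, horizontal axis) with 95% intervals from limma for the 3 members and the miR-183 passenger arm in 6 comparisons; a red ring marks an adjusted p under 0.05. Rings appear only in the averaged SCC minus skin comparison, on miR-183-5p (0.91), miR-182-5p (0.64) and miR-183-3p (1.02).

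The opposite arms of the hairpins, the passenger strands that are usually degraded, gave 3 further rows. miR-183-3p (5′ to 3′ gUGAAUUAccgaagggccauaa, bases 2 to 8 in capitals) was above the floor in all 12 libraries and is a readout of the same hairpin as miR-183-5p. Its log2 levels were 6.52, 6.56 and 6.28 in WT skin, 5.92, 5.97 and 5.63 in KO skin, 8.28 and 6.82 in WT SCC, and 7.00, 6.40, 7.27 and 6.46 in KO SCC. Its SCC libraries lay above all skin libraries within each genotype, as they did for 20.6% of tested miRNAs in WT and 17.8% in KO mice. Across both genotypes, 4 of 6 SCC libraries exceeded all skin libraries. Its averaged tumour difference was 1.02 ± 0.29, or 2.03-fold (95% interval 0.38 to 1.66, limma adjusted p = 0.0156). Without WT SCC replicate 1 it was 0.66 (adjusted p = 0.0926), and every other library could be left out with the call kept. Within WT and KO mice the differences were 1.10 ± 0.44 and 0.94 ± 0.37 (adjusted p = 0.113 and 0.0722). The WT value was 0.37 without WT SCC replicate 1, and 1.83 and called without WT SCC replicate 2 (adjusted p = 0.0166). The KO value was called without either WT SCC library, where it stayed at 0.94 with a smaller estimated spread (adjusted p = 0.0325 and 0.0305). All 3 KO skin libraries lay below all 3 WT skin libraries, as they did for 5.15% of tested miRNAs, with a difference of -0.61 ± 0.40 (adjusted p = 1).

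The passenger arms of the other hairpins were scarce. miR-182-3p was above the floor in 3 of 4 KO SCC libraries, at 3.81, 4.70 and 3.73, and at the floor in the other 9 libraries. miR-96-3p was above it in 2 KO SCC libraries, at 3.37 and 3.51. KO SCC replicates 3 and 4 were the libraries that had both. KO SCC libraries had 432 to 545 miRNAs above the floor, the other groups 370 to 465, and the part of this gap in the detection of the rare arms was not tested. Neither arm was called in any comparison.

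The members kept their order in all 12 libraries, while the gaps between them varied. In every library miR-182-5p exceeded miR-183-5p, and miR-183-5p exceeded miR-96-5p, and a read covers the whole of such a short RNA, so length does not scale these levels. Within a library, miR-182-5p exceeded miR-183-5p by 2.89 ± 0.42 on the log2 scale (mean ± SD over 12 libraries, a 7.43-fold ratio), with a range of 2.34 to 3.60. miR-96-5p lay below miR-183-5p by a difference of -4.41 ± 0.39, with a range of -5.13 to -3.92. miR-182-5p exceeded miR-96-5p by 7.30 ± 0.50, a 158-fold ratio. These ratios are of quantile-normalized values, which stand for ranks, and not of read counts. Ligation and amplification also favour some sequences, so the ratios need not be ratios of molecules.

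No shift of these gaps between SCC and skin was detected over both genotypes. In WT mice both SCC libraries lay below all skin libraries for the first 2 gaps, which share miR-183-5p. For the first gap the margin was narrow, 2.42 against 2.49. This rests on 2 libraries against 3 and was not tested, and how often other pairs of miRNAs do the same was not computed. The difference of miR-182-5p and miR-183-5p changed by -0.27 from skin to SCC (exact permutation within genotype, n = 6 against 6, two-sided p = 0.377). That of miR-96-5p and miR-183-5p changed by -0.27 (exact permutation p = 0.220), and that of miR-182-5p and miR-96-5p by 0.00 (exact permutation p = 0.994). Adjusted over the 3 pairs, the p-values were 0.566, 0.566 and 0.994. The 2 WT SCC libraries had the smallest gaps between miR-182-5p and miR-183-5p, at 2.34 and 2.42, although their levels of each miRNA were far apart. The arms of the miR-183 hairpin differed by 7.76 ± 0.49 (a 217-fold ratio of 5p to 3p), between 7.06 in WT skin replicate 3 and 8.62 in KO SCC replicate 4.

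**Figure D4:**
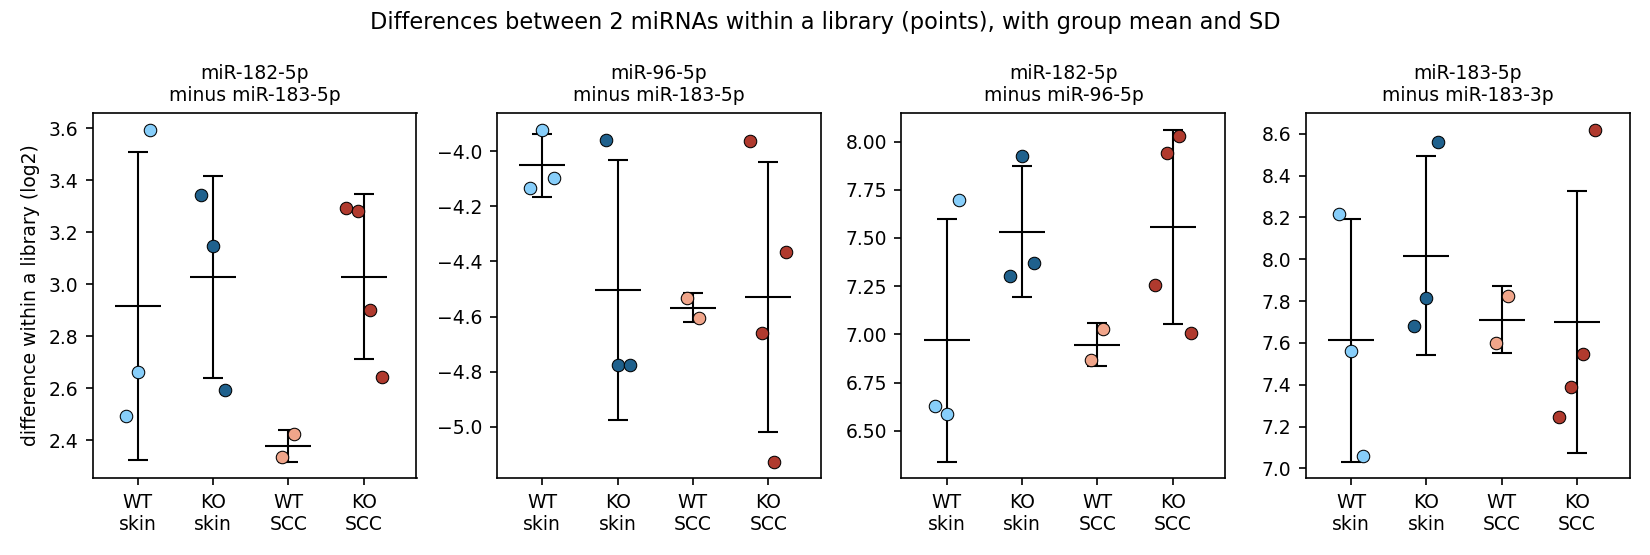
Differences between 2 miRNAs within a library (log2, vertical axis, a different range in each panel) by group, with group mean and SD; each point is a library. The first 3 panels compare the cluster members, and the last the arms of the miR-183 hairpin; SCC and skin overlap within each genotype except for the first 2 panels in WT mice, where WT SCC (2.34 and 2.42, then -4.60 and -4.53) lies below WT skin (2.49 to 3.60, then -4.13 to -3.92).

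The members also went together from library to library. Over the 12 libraries Pearson's r was 0.85 for miR-183-5p with miR-96-5p, 0.83 for miR-183-5p with miR-182-5p and 0.71 for miR-96-5p with miR-182-5p. After the 4 group means were taken out, r was 0.82, 0.76 and 0.71, so covariation remained when pooled over the groups. The WT SCC libraries weigh much in this, with the largest SD of any group for all 3 members (0.87 for miR-183-5p, 0.92 for miR-96-5p and 0.81 for miR-182-5p). It was not seen in every group. In KO skin miR-183-5p was at 13.60, 13.79 and 14.19 while miR-182-5p was at 16.94, 16.94 and 16.78. These miR-182-5p values are ranks 12, 12 and 13, so so small a range in 3 libraries cannot show whether covariation was absent. These are descriptions of 12 libraries that share 1 normalization, and how often unrelated pairs of miRNAs reach such r is not given here. miR-183-3p had an r of 0.76 with miR-183-5p, 0.70 with miR-96-5p and 0.85 with miR-182-5p, and of 0.52, 0.46 and 0.80 after the group means were taken out. The centred mean of the members was highest in WT SCC replicate 1 (1.30) and KO SCC replicate 4 (0.66), and lowest in WT skin replicate 3 (-0.67), KO skin replicate 2 (-0.60) and KO SCC replicate 2 (-0.52).

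Among 541 other tested miRNAs, those most like the centred mean of the members over the 12 libraries were miR-26a-1-3p (r = 0.86), miR-200c-5p (0.83), miR-183-3p (0.81), let-7f-2-3p (0.80), miR-1948-5p (0.79) and miR-15b-5p (0.79). Of these, miR-183-3p and miR-15b-5p were above the floor in all 12 libraries, and the other 4 in 3 to 6 libraries, so their r rests on few values. With group means removed, the highest r were of miR-26a-1-3p (0.77), miR-374c-3p (0.77), miR-351-5p (0.77) and miR-106b-3p (0.76). miR-183-3p was then at place 26, with r = 0.60. The likeness of miR-183-3p is of the same hairpin, and it was not used to choose the members.

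Other miRNAs of skin and carcinoma are set beside these changes. In a list of 12 miRNAs known from carcinomas and proliferation, including miR-21a-5p, miR-31-5p and the miR-17 and miR-106b clusters, 12 of 12 were called higher in SCC, against 20.4% of all tested miRNAs, with a median difference of 1.58 against 0.04. The list was chosen with earlier results of these data known, so its count is no independent evidence of its direction. Nor are its differences an independent scale for the size of the cluster's changes. The smallest increase in that list was 1.12 ± 0.37 for miR-19b-3p, larger in value than the 0.91 of miR-183-5p, although the difference between them was not tested. Of the 5 miR-200 family members, which share ZEB1 as a known repressor with the cluster, none was called, and the median was -0.29. Of the 5 keratinocyte miRNAs, 2 rose and 2 fell. miR-205-5p, a miRNA of basal keratinocytes, was at 1.55 ± 0.19 and miR-27b-3p at 0.65 ± 0.19 (limma adjusted p = 1.1e-04 and 0.0190). miR-184-3p was at -2.66 ± 0.54, and miR-203-3p, a miRNA of differentiating keratinocytes, at -0.60 ± 0.21 (limma adjusted p = 0.00251 and 0.0416).

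**Figure D5:**
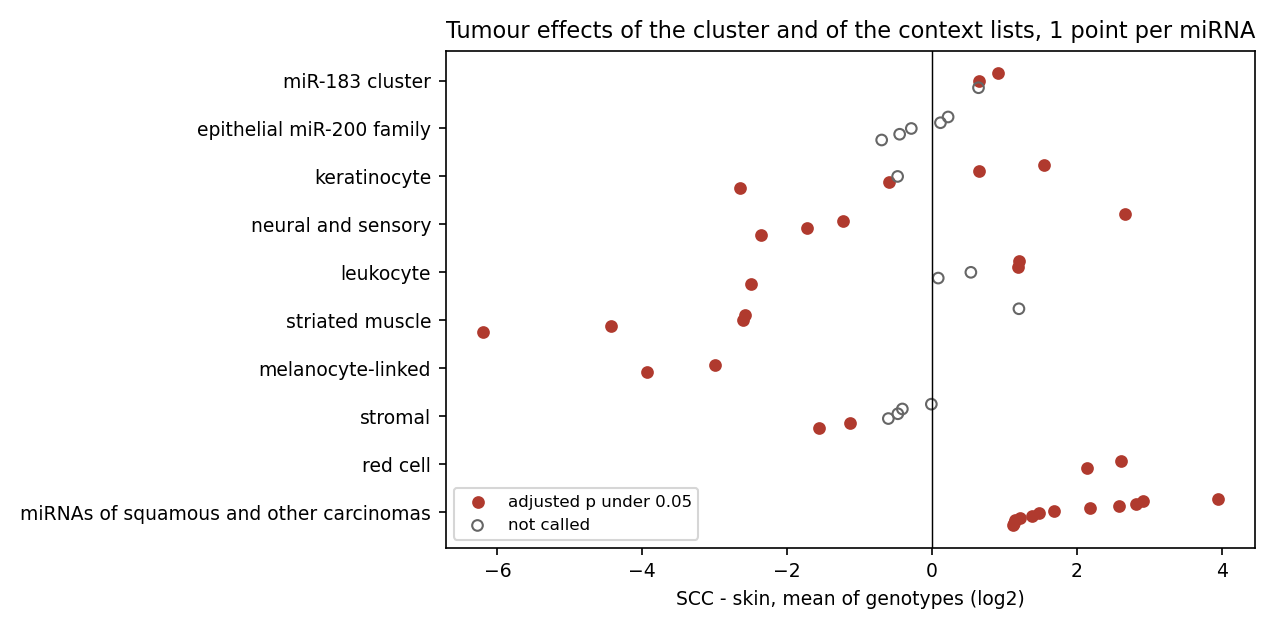
Averaged SCC minus skin differences (log2, horizontal axis) of the 3 cluster members and of each list (vertical axis), 1 point per tested miRNA; filled red points passed the adjusted threshold and open points did not. The cluster lies between 0.64 and 0.91, below every member of the carcinoma list (1.12 and above). That list was chosen with earlier results of these data known. The 4 striated muscle miRNAs that fell reach -6.20, and the other, miR-499-5p, lies at 1.20 and was not called.

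Some markers of other cell types moved in the same comparison, given here with the summed share of a library's linear values. Rose and fell mean called, and of all 544 tested miRNAs 41.9% were called and 20.4% were called higher. With lists this short the counts are descriptions only. Of 5 striated muscle miRNAs 4 fell, and miR-499-5p, at 1.20 ± 0.55, was not called (limma adjusted p = 0.110). Their summed share went from 1.10% to 1.49% in skin to 0.0783% to 0.519% in SCC. Both melanocyte-linked miRNAs fell, from 0.0383% to 0.107% in skin to 0.00146% to 0.0281% in SCC. Of 4 tested neural and sensory miRNAs 3 fell (miR-9-5p, miR-128-3p and miR-338-3p) and miR-138-5p rose, and their summed share was 0.0416% to 0.0650% in skin and 0.0138% to 0.114% in SCC. Of 5 tested leukocyte miRNAs 2 rose and 1 fell, with 0.524% to 0.645% in skin and 0.286% to 1.08% in SCC. Of 6 stromal miRNAs 2 fell, with 3.58% to 11.4% in skin and 2.92% to 7.19% in SCC. Both tested red cell miRNAs rose, from 0.0197% to 0.0482% in skin to 0.0625% to 0.475% in SCC. None of the tested miRNAs of these lists was at the floor in all 6 SCC libraries, and the part of these cell types in the changes of the cluster was not tested. In whole tissue, fewer or more cells that make a miRNA and less or more of it per cell cannot be told apart.

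KO SCC replicate 2 had the lowest levels of miR-183-5p and miR-96-5p among the tumours. It was also the library with the lowest summed share of the 5 miR-200 family members, 0.141% of the linear values, against 1.02% to 1.99% in the other SCC libraries and 0.938% to 1.49% in skin. This library was singled out after its values were seen. Its keratinocyte share, 15.8%, was within the 14.0% to 24.6% of the other tumours, and its carcinoma list share was 23.1%, against 13.4% to 24.2%. Its leukocyte share, 1.08%, was the highest of the 12 libraries (0.286% to 0.870% in the other tumours), and its neural and sensory share, 0.0138%, was the lowest (0.0557% to 0.114% in the other tumours). The averaged differences of miR-183-5p and miR-182-5p were called with and without it. In WT SCC replicate 1, the library with the most of the cluster, the miR-200 share was 1.02% and the striated muscle share 0.0975%, while WT SCC replicate 2 had 1.25% and 0.519%. The keratinocyte share was lowest of the tumours in WT SCC replicate 1 (14.0%) and highest in WT SCC replicate 2 (24.6%). Their carcinoma list shares were 20.9% and 13.4%. The part of these shares in the levels of the cluster was not tested.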

How the data were processed

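Small RNA levels of 12 libraries came as a deposited table of 1251 miRNAs in log2 units, and its columns were matched to samples by title. The submitters' processing notes name mm10; an aligner or counter is not given in the sources used here. The values themselves show that the log2 levels the authors deposited had been quantile normalized and cut off below at a linear value of 10, and the linear values of each library sum to 6065014 to 6065621. Read counts and depth are not kept, so no counting interval is given. With limma 3.58.1 in R 4.3.3, a model of 4 group means with trended, robust variances (8 residual degrees of freedom) was fitted to the 544 miRNAs that exceeded this floor in 2 or more libraries, and adjustment was over all 544 in each of 6 contrasts. The fit was checked on simulated tables with independent normal noise. Those tables had no floor and no quantile normalization, so the check does not cover these features of the data. Exact permutation tests were run for the members. Replicate numbers follow accession order and are names only. Named miRNAs are the members, their opposite arms, those that share a seed, the 6 and 4 most like in level and in residual, and members of fixed context lists. The members and lists were chosen with earlier results of these data known. Sequences are from RefSeq for GRCm38.p6 (the assembly of mm10). Of the 1251 row names, 1001 matched a mature RefSeq name.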

Additional observations from a re-analysis of the deposited data

How the results depend on the processing

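Depth is unknown for these values, and groups of 2 to 4 libraries limit every comparison. Over 9 alternatives (scaling, filters, pseudocounts, variance models, and a model of tissue and genotype chosen after seeing the data) and 12 fits without 1 library, the 3 members kept a positive SCC minus skin difference. The averaged miR-183-5p call ended under 3 settings. Its value was 0.91 with the filter of 1 library and with moderation neither trended nor robust, and 0.83 with quality weights. Leaving out libraries gave 0.60 to 1.22 for miR-183-5p, 0.32 to 0.97 for miR-96-5p and 0.36 to 0.93 for miR-182-5p in the averaged comparison. It gave 0.58 to 1.81, 0.03 to 1.33 and 0.0878 to 1.23 in WT mice, and 0.43 to 0.86, 0.35 to 0.88 and 0.56 to 0.78 in KO mice. KO minus WT gave -0.57 to 0.13, -1.05 to -0.37 and -0.20 to 0.026 in skin and -1.39 to -0.17, -1.39 to -0.09 and -0.70 to 0.44 in SCC. Without KO SCC replicate 2 the miR-182-5p value in SCC was 0.0184. The interaction gave -1.18 to 0.0438, -0.73 to 0.57 and -0.60 to 0.54, and was 0.29 for miR-96-5p with quality weights. For miR-183-3p it gave -0.88 to 0.57. The gap of miR-182-5p and miR-96-5p changed by -0.0942 to 0.18. A fit that leaves 1 WT SCC library assumes that it varies like the other groups. Median-ratio scaling moved the median averaged difference of all tested miRNAs from 0.04 to 0.16, and gave 1.03 for miR-183-5p, 0.76 for miR-96-5p and 0.76 for miR-182-5p.

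Of all tested miRNAs, 228 were called in the averaged comparison, 218 to 230 under the alternatives and 165 to 232 without a library. In WT tumours 99 were called, 62 with only those groups fitted, and 30 to 116 without a library. KO against WT skin gave 0, with 22 under quality weights and 0 to 2 without a library. In SCC it gave 1, with 0 in the filter of 6 libraries, 2 with moderation neither trended nor robust, and 0 with only those groups fitted. Leaving out 1 skin or KO SCC library gave 0 to 2 there. The interaction gave 0, and 0 to 10 without a library. The cause of these shifts was not tested. No paired analysis was possible because the labels name no pairs, and skin and SCC differ in age and treatment. DESeq2 was not run because the values are not counts.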
